A study of Mus musculus with 11 samples.

Results

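The genes described here encode proteins of the synaptic vesicle and of the active zone, the patch of presynaptic membrane where vesicles dock and fuse. The list names 36 mouse genes. Each was read by a probe set that carries its symbol and no other, and where a gene had several, the brightest on average across the 11 arrays was taken. By this rule 35 of the 36 genes were measured, out of 19938 genes with such a probe set on the array, and Vamp2, whose annotated probes also carry another gene's symbol, has no value. Of the 35, 34 had a mean above the 40th percentile of all genes (log2 6.99) and entered the test, and Cplx3 lay below it.

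The arrays held nucleus accumbens RNA of 5 Rarb-null mice and 6 wild-type (WT) mice, 1 male of 4 to 5 months on each array. Rarb encodes retinoic acid receptor beta, a nuclear receptor that regulates transcription when it binds retinoic acid. All mice were behaviourally naive littermates bred from heterozygous parents on a mixed C57BL/6J and 129SvEms/j background, and the labels name no transgene, Cre driver or treatment. The tissue, punched from the accumbens so as to be rich in its shell, is the ventral striatum. Values are log2 expression from Affymetrix Mouse Gene 1.0 ST arrays after robust multi-array analysis (RMA), a difference is the Rarb-null mean minus the WT mean, and the number of arrays limits its precision.

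A vesicle is filled with transmitter, tethered at the active zone by scaffold proteins such as bassoon, piccolo, RIM and RIM-BP, and primed by Munc13 proteins. It then fuses when SNARE proteins of vesicle and membrane zip together, under the control of complexins and calcium sensors, and NSF with its SNAP adaptors takes the SNARE complex apart again. Most mRNA of these proteins lies in the cell bodies, so a punch of the accumbens reports mainly the neurons that lie in it, the GABAergic projection neurons above all, and much less the axons that arrive from cortex, thalamus and midbrain. In such a punch fewer cells of a type and less RNA per cell cannot be told apart.

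Rarb checked the labels. It read 9.88, 9.86, 10.01, 9.99 and 9.72 in the Rarb-null arrays and 11.70 to 11.81, with a median of 11.76, in the WT arrays, a difference of -1.86 (SE 0.047; limma Benjamini-Hochberg adjusted p = 4.44e-11). Every array titled as mutant thus lay below every array titled WT, although the extraction protocol states the group sizes the other way round. The median probe set stood at 7.08 to 7.11 in Rarb-null and 7.02 to 7.06 in WT arrays, so a small difference in scale remained after RMA. The spread differed too. The interquartile range of all probe sets was 3.378 to 3.486 in Rarb-null and 3.488 to 3.555 in WT arrays. Centring an array on its median leaves this narrower spread in place, and its part in the differences below was not tested. Markers of cortical neurons stood higher in Rarb-null arrays. The mean level of 11 measured markers was 8.64 to 9.27 in Rarb-null and 8.01 to 8.75 in WT arrays, and 4 of 10 tested rose, among them Lamp5 (0.66) and Cux2 (0.18). Rarb-null replicate 5 had the highest level (9.27) and WT replicates 3 and 4 the lowest (8.01 and 8.07). Lamp5 and Cux2 did not follow that level among WT arrays. Lamp5 was highest there in replicates 3 and 4 (10.50 and 10.44), and Cux2 lowest in replicate 2 (8.14), the WT array of highest level (8.75). Markers of striatal projection neurons stood lower, with 12 of 18 fallen (Tac1 by 0.39, Rgs9 by 0.42) and mean levels of 11.34 to 11.48 in Rarb-null and 11.60 to 11.69 in WT arrays. Of 10 oligodendrocyte markers 4 fell, including Opalin (-0.35) and Mag (-0.23), at mean levels of 9.37 to 9.61 in Rarb-null and 9.52 to 9.75 in WT arrays. Levels of cortical and oligodendrocyte markers were used as covariates. The projection neuron level, which did not overlap between genotypes, was not, and its part in the falls below was not tested. Its markers stood well above the median probe set in every array. Of 8 interneuron markers tested 2 rose and 3 fell (Npy 0.40, Slc5a7 -0.42), and of 9 astrocyte markers 1 rose and 3 fell. None of 6 septal, pallidal or hypothalamic, 7 microglial and 7 endothelial or mural markers passed by limma after adjustment (1, 3 and 0 at an unadjusted p under 0.05), and the median differences of these lists were 0.11, -0.045 and -0.026. RMA values have no true 0, so no marker could be read as absent.

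The 250 bases upstream of the annotated start are shown for Rarb and for the 5 tested list genes with the smallest p values, since the receptor acts at DNA. The Rarb window serves as the example of a retinoic acid response element, a direct repeat of a short motif to which pairs of nuclear receptors bind. In it the capitals mark the match to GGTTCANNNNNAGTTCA, and in the others they mark the nuclear receptor hexamer AGGTCA or the GC box GGGCGG, a common promoter motif, on either strand. Sequences are from RefSeq (build GRCm38.p6) and run 5′ to 3′ on the strand of the gene.
Rarb, chr14:16575477-16575726, minus strand: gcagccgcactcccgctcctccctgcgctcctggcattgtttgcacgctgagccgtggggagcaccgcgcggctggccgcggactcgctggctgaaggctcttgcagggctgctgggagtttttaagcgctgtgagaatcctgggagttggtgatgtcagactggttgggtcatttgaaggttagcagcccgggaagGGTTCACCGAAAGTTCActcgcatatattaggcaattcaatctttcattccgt
Rab3b, chr4:108878820-108879069, plus strand: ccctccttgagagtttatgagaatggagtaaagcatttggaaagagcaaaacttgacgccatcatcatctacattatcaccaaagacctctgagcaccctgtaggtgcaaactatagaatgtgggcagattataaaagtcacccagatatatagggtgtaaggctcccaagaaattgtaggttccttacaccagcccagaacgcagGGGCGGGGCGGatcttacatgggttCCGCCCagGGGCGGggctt
Rimbp2, chr5:128953487-128953736, minus strand: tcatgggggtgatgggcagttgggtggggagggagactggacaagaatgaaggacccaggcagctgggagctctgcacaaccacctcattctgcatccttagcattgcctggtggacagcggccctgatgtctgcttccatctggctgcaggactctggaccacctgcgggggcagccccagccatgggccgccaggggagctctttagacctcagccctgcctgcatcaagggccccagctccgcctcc
Cplx1, chr5:108550028-108550277, minus strand: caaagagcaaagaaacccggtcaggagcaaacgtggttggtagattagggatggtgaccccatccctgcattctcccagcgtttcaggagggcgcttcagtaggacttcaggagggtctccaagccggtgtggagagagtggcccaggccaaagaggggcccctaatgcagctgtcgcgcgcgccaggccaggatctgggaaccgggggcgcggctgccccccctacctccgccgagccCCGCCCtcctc
Unc13a, chr8:71671758-71672007, minus strand: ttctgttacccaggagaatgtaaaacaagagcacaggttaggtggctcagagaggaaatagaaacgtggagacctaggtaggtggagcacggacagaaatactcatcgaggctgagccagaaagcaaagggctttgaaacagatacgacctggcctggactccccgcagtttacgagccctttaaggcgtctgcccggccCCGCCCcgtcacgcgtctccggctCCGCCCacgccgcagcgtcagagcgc
Sv2c, chr13:96132578-96132827, minus strand: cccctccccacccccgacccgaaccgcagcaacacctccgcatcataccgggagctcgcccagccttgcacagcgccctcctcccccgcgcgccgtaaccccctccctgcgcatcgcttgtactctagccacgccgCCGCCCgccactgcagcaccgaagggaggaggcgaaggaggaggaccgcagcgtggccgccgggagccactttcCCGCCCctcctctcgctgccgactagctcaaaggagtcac

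Motifs were searched on both strands in these upstream windows, of which 29 of the 36 genes had at least one (36 windows). AGGTCA occurred in 14% of all 32851 windows and in 3 of the 36 windows of listed genes, those of Cplx3, Erc2 and Syngr1. The repeat of the Rarb window was found in 2 windows of all genes, and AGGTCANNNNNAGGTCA, AGGTCANNAGGTCA and AGGTCANAGGTCA, each of which contains AGGTCA, in 3, 3 and 11. None of these 4 repeats was in a window of a listed gene. GGGCGG was in 20 of the 36 windows (55.6%, against 32.7% of all windows), including Rab3b, Cplx1, Unc13a and Sv2c but not Rimbp2. TCAGCACC, the left part of the site of the neuronal silencer REST, was in 2 of the 36 windows (5.56%, against 1.32% of all windows). These were the windows of Napa and of Syn1, a gene long studied as a REST target. The Syn1 window also held TGACGTCA, the cyclic AMP response element, found in 1.55% of all windows. A match describes the letters of the window and does not show binding.

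Rab3b, one of the small GTPases that carry vesicles to the active zone, had the largest difference of the list and was lower in Rarb-null mice. With it fell the RIM-binding protein gene Rimbp2, the complexin gene Cplx1, the RIM gene Rims2 and all 3 genes of the vesicle glycoprotein SV2, while the Munc13 gene Unc13a, the synapsin gene Syn2 and the syntaxin gene Stx1a rose. Of 34 genes tested, 3 rose and 7 fell (29.4%) by limma with Benjamini-Hochberg adjustment over all 11963 genes tested, a threshold of 0.05, and 24 did not pass. Over all genes 19.6% passed, 7.56% higher and 12% lower. For 7 of the 34 every Rarb-null array lay on one side of every WT array, which held for 11.2% of all genes. The median difference of the 34 was -0.011, against -0.017 over all genes, and the median absolute difference was 0.081 against 0.070. The median of the list thus lay near that of all genes. No test was made of these shares, since the genes were listed with earlier results of these data known.

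**Figure D1:**
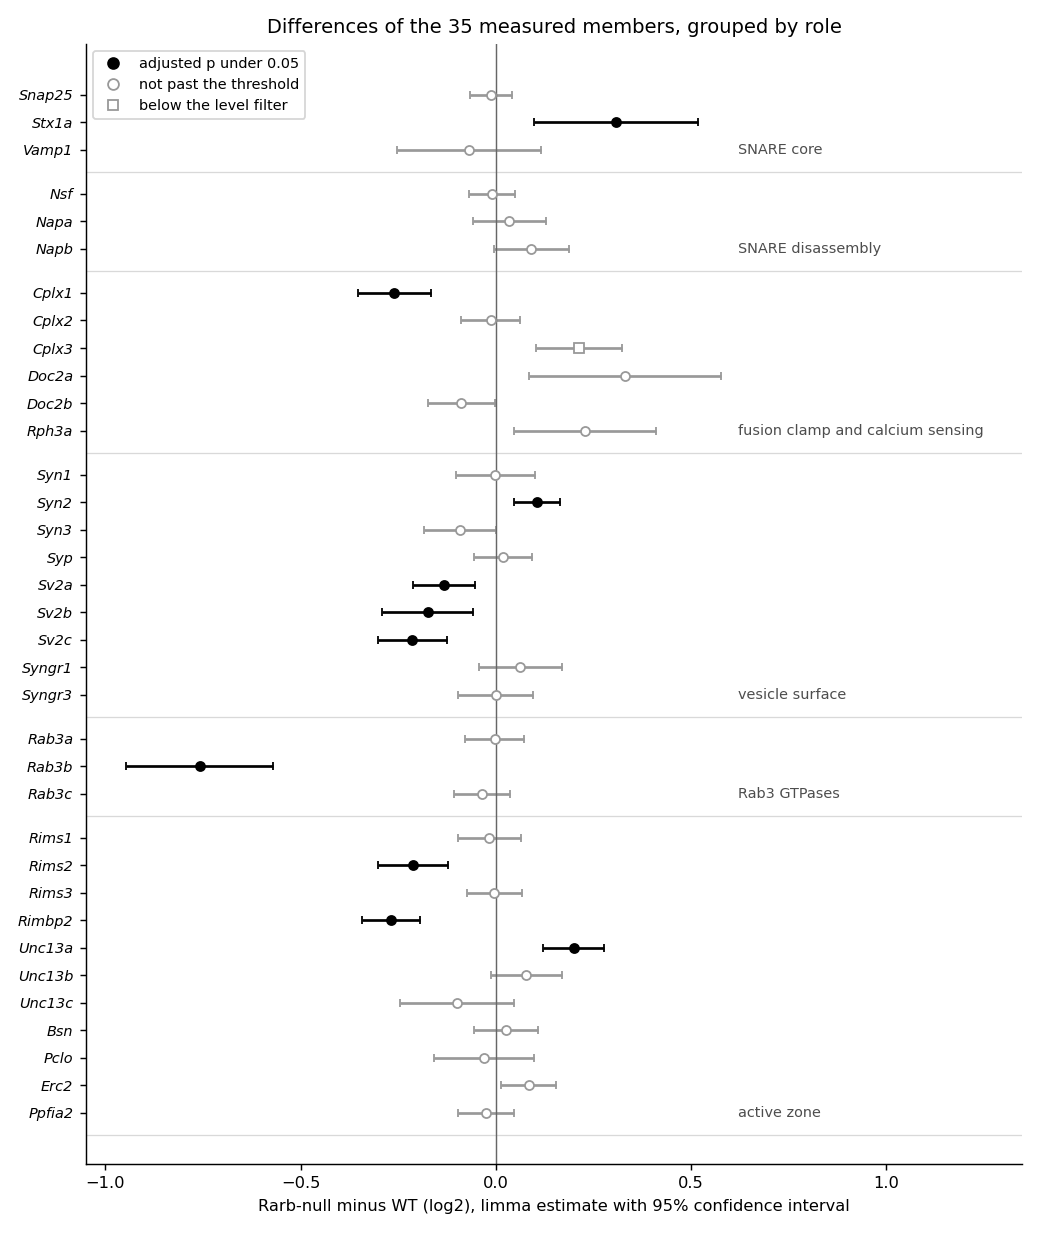
Differences of the 35 measured genes between genotypes (Rarb-null minus WT, log2, x axis) with 95% confidence intervals of the limma fit, grouped by role; filled points passed the adjusted threshold, and Cplx3, the square, lay below the level filter and comes from the fit without it. Rab3b at -0.76 lies farthest from 0, and most others lie within 0.1 of it.

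SNARE proteins form the fusion complex itself. Snap25, which encodes the membrane SNARE with both helices, was nearly identical in all arrays, at 13.18 to 13.20 in Rarb-null and 13.18 to 13.23 in WT (difference -0.01, 95% interval -0.07 to 0.04). Vamp1, a vesicle SNARE gene, read 9.35 to 9.62 in Rarb-null and 9.27 to 9.86 in WT arrays, and its difference of -0.07 did not pass. Stx1a, the gene of the membrane SNARE syntaxin 1A, read 8.82, 8.73, 8.84, 8.81 and 9.24 in the Rarb-null arrays and 8.39 to 8.86 (median 8.54) in WT arrays. Replicate 5 was far above the other Rarb-null arrays, and WT replicate 2 (8.86) lay above those other 4. The rise was 0.31 (SE 0.097; limma adjusted p = 0.0406). Removal of a single array ended the call in 7 cases, Rarb-null replicates 3, 4 and 5 and WT replicates 1, 3, 4 and 6 (0.22 to 0.33, adjusted p 0.0534 to 0.0856). It also missed with the oligodendrocyte covariate (0.28, limma adjusted p = 0.207) and came to 0.02 with the cortical covariate (limma adjusted p = 0.892).

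The genes that take the SNARE complex apart gave no call. Nsf, the ATPase, read 12.29 to 12.37 in Rarb-null and 12.29 to 12.34 in WT arrays. Its adaptors Napa (alpha-SNAP) and Napb (beta-SNAP) gave 0.04 (95% interval -0.06 to 0.13) and 0.09 (-0.01 to 0.19). Of the 22 alternative fits Napb passed only in that without WT replicate 2, the highest of its WT arrays (0.13, limma adjusted p = 0.0215).

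Complexins bind the assembled SNARE complex and both hold back and promote fusion. Cplx1 read 11.53, 11.51, 11.55, 11.54 and 11.55 in Rarb-null arrays, which span less than 0.1, against 11.64 to 11.89 (median 11.81) in WT arrays. All Rarb-null arrays lay below all WT arrays, and the fall was 0.26 on the log2 scale (SE 0.043, 1.2-fold lower in Rarb-null; limma adjusted p = 0.00117). It passed in all 22 alternative fits (adjusted p 0.000143 to 0.0202). Cplx2 differed by -0.01 (95% interval -0.09 to 0.06). Cplx3, known above all from retinal ribbon synapses, was dim at 6.08 to 6.26 in Rarb-null and 5.86 to 6.14 in WT arrays. It was not tested in the filtered fit, and without a filter it gave 0.21 (SE 0.051, limma adjusted p = 0.0177), with groups that overlap. The part of the narrower spread of the Rarb-null arrays in this dim value was not tested.

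Among the calcium-binding C2-domain proteins, Doc2a, a sensor linked to spontaneous and asynchronous release, read 8.35, 8.44, 8.38, 8.34 and 8.77 in Rarb-null and 7.82 to 8.46 (median 8.14) in WT arrays. Rph3a, the gene of the Rab3 effector rabphilin, read 9.74, 9.77, 9.74, 9.66 and 10.09 in Rarb-null and 9.33 to 9.79 (median 9.55) in WT arrays. In both genes Rarb-null replicate 5 was the highest array, and WT replicate 2 (8.46 and 9.79) lay above all the remaining Rarb-null arrays. WT replicate 5 (8.34 and 9.69) lay within the range of those remaining arrays. Neither difference passed (0.33, SE 0.114, and 0.23, SE 0.084; limma adjusted p = 0.0577 and 0.0705). Both passed when arrays were centred on their medians or without WT replicate 2, and Doc2a also without WT replicate 5. With the cortical covariate they came to 0.02 and 0.01. Doc2b gave -0.09 (SE 0.040; limma adjusted p = 0.138).

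The cortical marker level ran alongside these 3 genes, and not these alone. Within each genotype Syn1 was highest in Rarb-null replicate 5 (11.68) and WT replicate 2 (11.64). Rab3b was highest in the same arrays (9.55 and 10.27), and its difference went from -0.76 to -0.95 with the cortical covariate. That of Sv2b went from -0.17 to -0.32. Stx1a, Doc2a and Rph3a were highest in Rarb-null replicate 5, the array of the highest marker level. Only WT replicate 2 (8.75) had a marker level within the range of the Rarb-null arrays. The part of the marker level was not tested beyond the covariate fit.

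**Figure D2:**
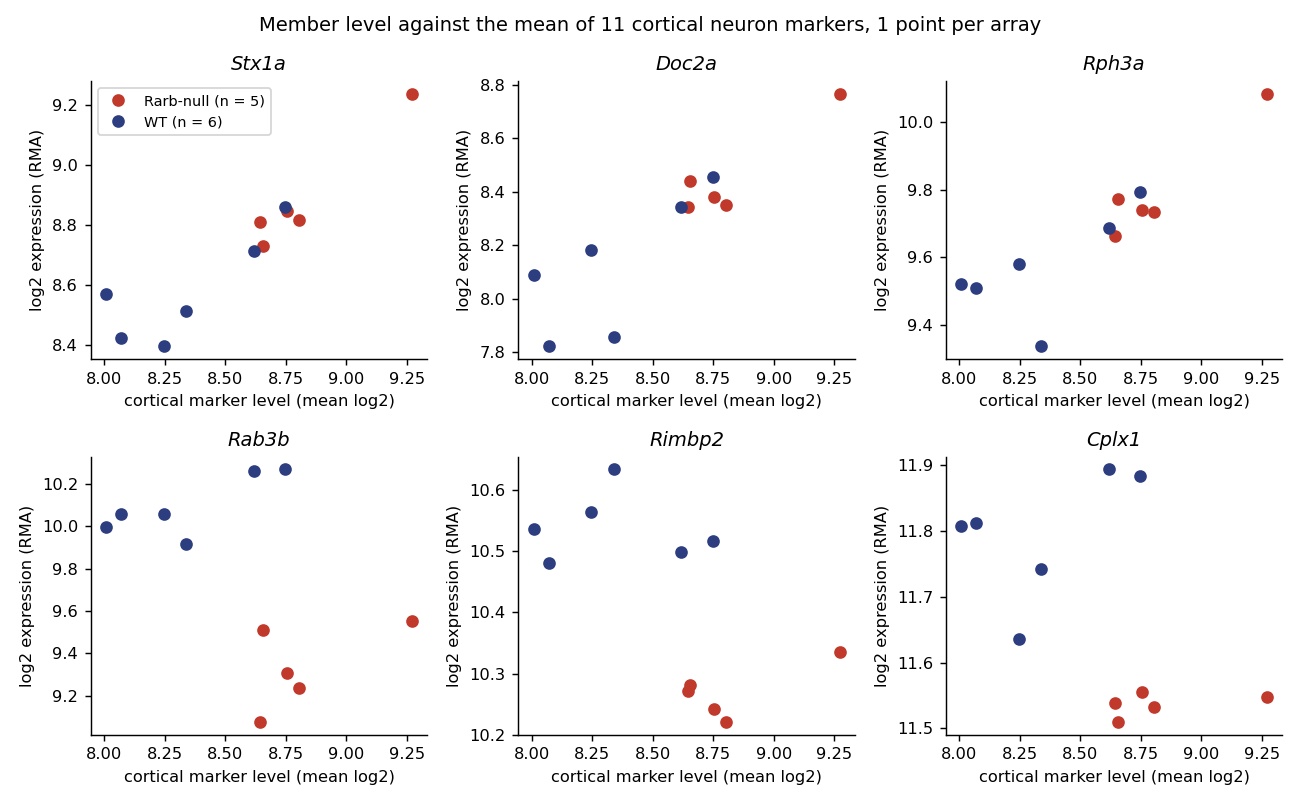
Level of 6 genes (log2, y axes) against the mean log2 level of 11 cortical neuron markers (x axes), 1 point per array, Rarb-null in red and WT in blue. Stx1a, Doc2a and Rph3a climb with the marker level across both genotypes, with Rarb-null replicate 5 at the upper right. The Rarb-null points of Rab3b, Rimbp2 and Cplx1 all lie below the WT points. Every WT array but replicate 2 lies to the left of every Rarb-null array.

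On the vesicle itself, the SV2 glycoproteins, which modulate release and of which SV2C is known to be enriched in the striatum and other basal ganglia, fell together. Sv2c read 11.07, 11.17, 11.09, 11.15 and 11.04 in Rarb-null arrays and 11.22 to 11.41 (median 11.32) in WT arrays, with no overlap (difference -0.21, SE 0.041; limma adjusted p = 0.00324). It missed the threshold with the cortical covariate (-0.14, limma adjusted p = 0.108) and with the oligodendrocyte covariate (-0.19, limma adjusted p = 0.0527). Sv2a, the member found at nearly all synapses, read 11.72, 11.78, 11.75, 11.68 and 11.84 in Rarb-null and 11.80 to 11.96 (median 11.89) in WT arrays. One Rarb-null array thus reached the WT range, and the difference was -0.13 (SE 0.037; limma adjusted p = 0.0237). Sv2b read 11.56, 11.40, 11.43, 11.47 and 11.66 in Rarb-null and 11.60 to 11.83 (median 11.64) in WT arrays, a difference of -0.17 (SE 0.054; limma adjusted p = 0.0392). Rarb-null replicate 5 lay inside the WT range and the other 4 below it.

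The calls of Sv2a and Sv2b were close to the threshold. Sv2a missed the threshold when Rarb-null replicate 3, Rarb-null replicate 4 or WT replicate 5 was removed (-0.13 to -0.12, adjusted p 0.0511 to 0.0582). Sv2b missed it on removal of Rarb-null replicate 2, 3 or 4 or of WT replicate 2, 5 or 6 (-0.18 to -0.15, adjusted p 0.0615 to 0.0988). With centred arrays they gave -0.09 and -0.13 (limma adjusted p = 0.104 and 0.0715), and with the oligodendrocyte covariate -0.10 and -0.19 (limma adjusted p = 0.212 and 0.122). With the cortical covariate both kept their calls and Sv2b gave -0.32 (limma adjusted p = 0.00198).

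Synapsins tether vesicles to each other and to actin in the reserve pool. Syn2 read 11.82, 11.82, 11.84, 11.80 and 11.78 in Rarb-null arrays, all above the WT arrays at 11.67 to 11.74 (median 11.71). Its rise was small, 0.11 (SE 0.028; limma adjusted p = 0.0186), and was lost without Rarb-null replicate 3 (0.10, adjusted p = 0.0522) and with the cortical (0.13, adjusted p = 0.0605) or oligodendrocyte covariate (0.08, adjusted p = 0.174). The 95% interval of Syn1 ran from -0.10 to 0.10. With the cortical covariate Syn1 gave -0.14 (SE 0.04, limma adjusted p = 0.0515), short of the threshold. Syn3 gave -0.09 (95% interval -0.18 to 0.0005). The membrane proteins synaptophysin (Syp, 0.02), synaptogyrin 1 (Syngr1, 0.06) and synaptogyrin 3 (Syngr3, -0.0002), all tetraspan proteins of the vesicle, did not pass, and their 95% intervals together ran from -0.10 to 0.17.

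Rab3 GTPases sit on the vesicle and, when bound to GTP, recruit RIM and rabphilin. Rab3b read 9.24, 9.51, 9.31, 9.07 and 9.55 in Rarb-null arrays and 9.92 to 10.27 (median 10.06) in WT arrays. The highest Rarb-null array stayed well below the lowest WT array. Its mean was 9.34 ± 0.20 in Rarb-null (SD, n = 5) and 10.09 ± 0.14 in WT arrays (SD, n = 6), a fall by 0.76 on the log2 scale (SE 0.088) or 1.69-fold (limma adjusted p = 5.87e-05). An exact two-sided permutation test gave p = 0.00216, the smallest that splits of 5 against 6 arrays allow. The call held in all 22 alternative fits, with differences from -0.95 under the cortical covariate to -0.66 under the oligodendrocyte covariate. Rab3a (-0.0028, 95% interval -0.08 to 0.07) and Rab3c (-0.04, -0.11 to 0.04) did not pass. Rab3a spanned 11.28 to 11.32 in Rarb-null and 11.21 to 11.39 in WT arrays.

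**Figure D3:**
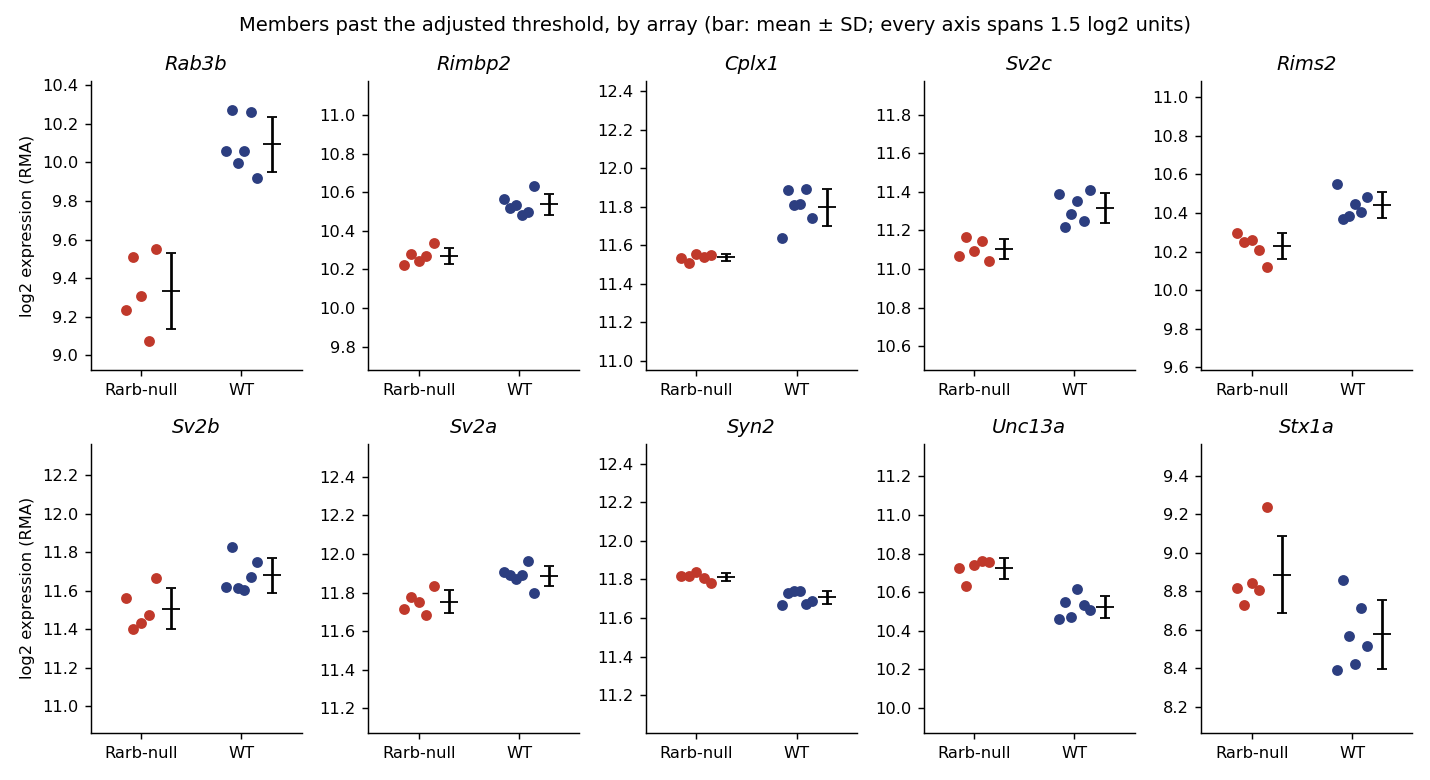
Log2 expression of the 10 genes that passed the threshold, 1 point per array, with Rarb-null (red, n = 5) left of WT (blue, n = 6), bars as mean ± SD and every axis spanning the same 1.5 log2 units. Rab3b shows the widest gap, the Rarb-null points of Cplx1 and Syn2 are tightly packed, and the groups overlap for Sv2a, Sv2b and Stx1a.

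At the active zone RIM proteins bind Rab3, calcium channels and Munc13. Rims2 read 10.30, 10.25, 10.26, 10.21 and 10.12 in Rarb-null and 10.37 to 10.55 (median 10.43) in WT arrays, with no overlap (difference -0.21, SE 0.041; limma adjusted p = 0.00336). It missed the threshold with the cortical (-0.15, adjusted p = 0.0951) and oligodendrocyte covariates (-0.17, adjusted p = 0.0634). Rims1 gave -0.02 (95% interval -0.10 to 0.07) and Rims3 -0.0033 (-0.07 to 0.07). Rimbp2, whose protein links RIM to calcium channels, read 10.22, 10.28, 10.24, 10.27 and 10.33 in Rarb-null arrays, all below the WT range of 10.48 to 10.63 (median 10.53). Its difference was -0.27 (SE 0.035, 1.2-fold lower in Rarb-null; limma adjusted p = 0.000146) and passed in all 22 alternative fits, from -0.30 to -0.23 under the covariates, centring and removal of the 3 arrays with the outermost cortical marker levels.

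Munc13 proteins prime docked vesicles for fusion. Unc13a read 10.73, 10.63, 10.74, 10.76 and 10.76 in Rarb-null arrays, all above the WT range of 10.46 to 10.62 (median 10.52). The rise was 0.20 (SE 0.037; limma adjusted p = 0.00228), and the call held when any 1 array was left out. It came to 0.18 with the cortical covariate (limma adjusted p = 0.0501) and 0.14 with the oligodendrocyte covariate (limma adjusted p = 0.0557). The remaining 2 probe sets of Unc13a gave 0.27, without overlap, and 0.20. Unc13b gave 0.08 (95% interval -0.01 to 0.17) and Unc13c -0.10 (-0.24 to 0.05). All 7 probe sets of Unc13c were lower on average in Rarb-null arrays, by 0.05 to 0.25, with overlapping groups.

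The large scaffolds and linkers of the active zone gave no call. Bassoon (Bsn) read 9.18 to 9.28 in Rarb-null and 9.12 to 9.31 in WT arrays, and piccolo (Pclo) 10.68 to 10.83 in Rarb-null and 10.65 to 11.01 in WT arrays. Ppfia2, the gene of liprin-alpha 2, gave -0.02 (95% interval -0.10 to 0.05). Erc2, which encodes the scaffold ELKS2 or CAST, read 11.21, 11.13, 11.24, 11.17 and 11.15 in Rarb-null and 11.05 to 11.15 (median 11.09) in WT arrays, with an overlap between the lower Rarb-null and the upper WT arrays. Its difference of 0.08 (SE 0.032) missed the threshold (limma adjusted p = 0.0826). It passed with centred arrays (0.12, limma adjusted p = 0.0242) and, of all 22 alternatives, in 1 other. Erc2 lies on the chromosome of Rarb, with 82 protein-coding genes between them in the RefSeq order of assembly GRCm38.p6. On a mixed background, alleles linked to the mutation and loss of the receptor cannot be told apart for such a gene.

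Members of a family did not always move alike. For each of 22 pairs within a family, the log2 ratio of both genes within an array was compared between genotypes with a two-sided exact permutation test over all splits of 5 against 6 arrays, adjusted over the 22 pairs (Benjamini-Hochberg). Of these, 8 pairs passed, 1 of them with the dim Cplx3, and 11 had an unadjusted p under 0.05. Passing pairs that share Rab3b, Rims2 or Cplx1 are not independent of each other, and the ratios were not tested with a marker covariate. The ratio of Rab3b to Rab3c changed by -0.72 and that of Rab3a to Rab3b by 0.76 (exact permutation p = 0.00216 each, adjusted 0.00952), while Rab3a to Rab3c moved by 0.03 (exact permutation p = 0.364). The ratio of Rims1 to Rims2 changed by 0.20 and that of Rims2 to Rims3 by -0.21 (exact permutation p = 0.00216 each, adjusted 0.00952). Rims1 and Rims3 themselves differed by -0.02 and -0.0033, so these ratios mostly restate the fall of Rims2. The ratio of Cplx1 to Cplx2 changed by -0.25 (exact permutation p = 0.00433, adjusted 0.0159) and that of Cplx1 to Cplx3 by -0.47 (exact permutation p = 0.00216, adjusted 0.00952). The ratio to Cplx3 rests on a probe set below the level filter whose signal over background was not measured, so it does not show a change within the family. The ratio of Unc13a to Unc13c changed by 0.30 (exact permutation p = 0.00649, adjusted 0.0204). That of Syn2 to Syn3 changed by 0.20 (exact permutation p = 0.00866, adjusted 0.0238). Removal of Rarb-null replicate 2 or of any WT array but replicate 2 ended the call of Syn2 to Syn3 (0.17 to 0.20, adjusted 0.0582 to 0.0655). No difference was shown among the 3 Sv2 genes, whose ratios changed by 0.04 to 0.08 (exact permutation p = 0.245 to 0.662), which does not show that they changed equally.

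**Figure D4:**
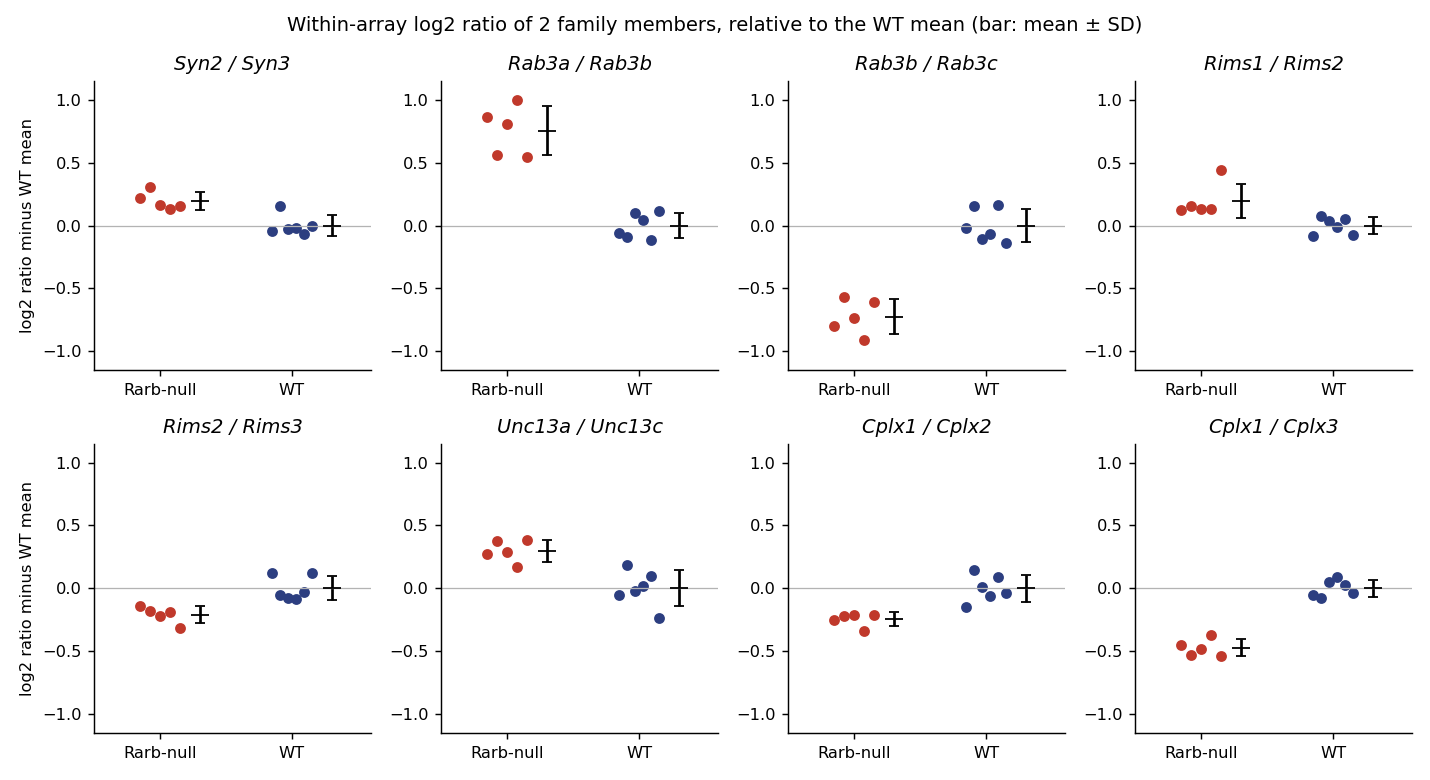
Within-array log2 ratio of the 8 gene pairs that passed the exact permutation test after adjustment, set relative to the WT mean (y axes), 1 point per array, Rarb-null (red) left of WT (blue), bars as mean ± SD. Both ratios with Rab3b shift by over 0.7 and show no overlap, while the ratios of Syn2 to Syn3 and Unc13a to Unc13c overlap between genotypes.

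The calls differed with the marker covariate, the arrays kept and the scale. Only WT replicate 2 had a cortical level within the Rarb-null range, so in the covariate fit genotype and tissue makeup cannot be told apart. In that fit Syn2 gave 0.13 (SE 0.039, against 0.028 without it) and Unc13a 0.18 (SE 0.052, against 0.037). Stx1a came to 0.02 there (SE 0.0725, against 0.097). With the oligodendrocyte covariate Syn2 gave 0.08 (SE 0.035) and Unc13a 0.14 (SE 0.042). Why these calls were lost was not tested. With the cortical covariate 0 genes of the list rose by limma (2 at an unadjusted p under 0.05) and 5 fell (Rab3b, Rimbp2, Cplx1, Sv2a and Sv2b), where 9.59% of all genes passed. With the oligodendrocyte covariate 0 rose by limma (4 at an unadjusted p under 0.05) and 3 fell (Rab3b, Rimbp2 and Cplx1), where 8.6% of all genes passed. Without Rarb-null replicate 5 and WT replicates 3 and 4, the 3 arrays at the ends of the cortical marker range, 2 rose and 7 fell, where 11.3% of all genes passed, and Stx1a was the one call lost (0.18, limma adjusted p = 0.201). With each array centred 6 rose, Doc2a, Rph3a and Erc2 joining, and 5 fell, where 14% of all genes passed higher and 7.85% lower. With centring the median of the 34 genes was 0.029, against -0.011 without it.

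**Figure D5:**
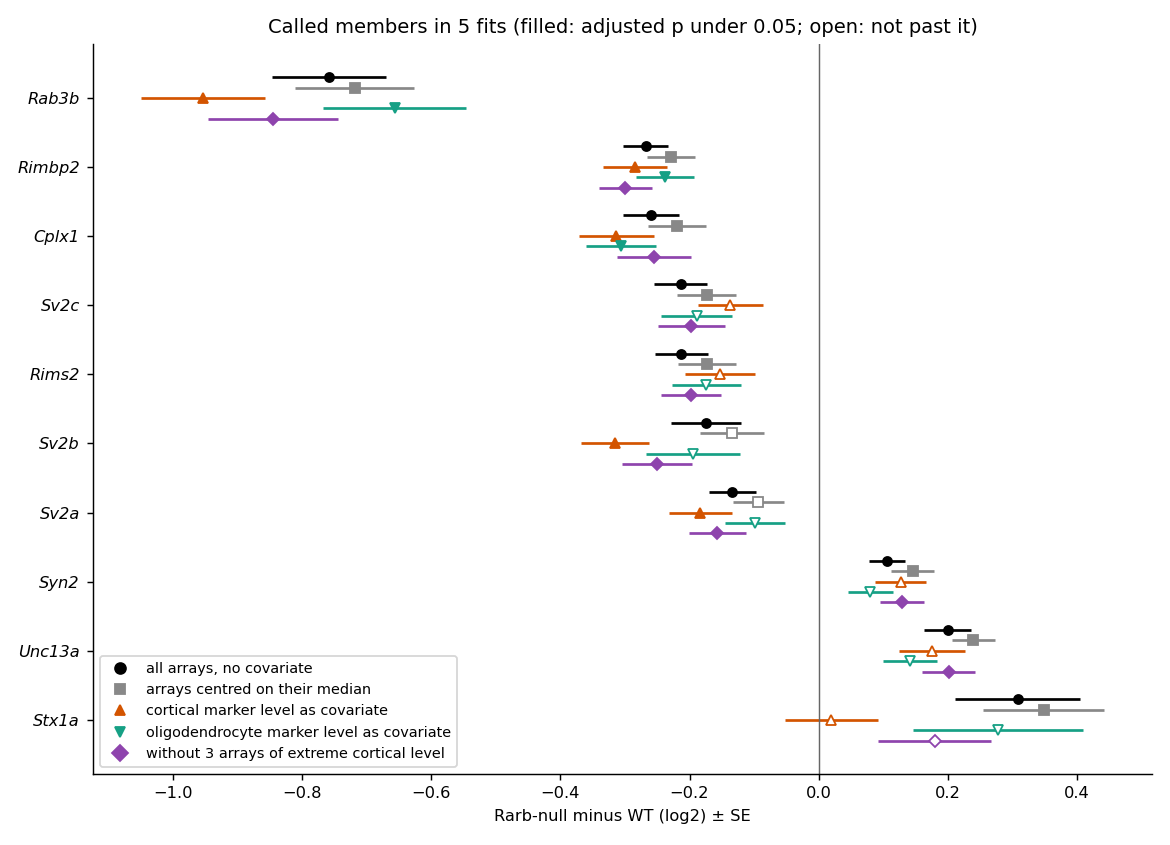
Difference (Rarb-null minus WT, log2, x axis) ± SE of the 10 genes that passed, in 5 fits marked by colour and shape; filled symbols passed the adjusted threshold and open ones did not. Rab3b, Rimbp2 and Cplx1 are filled in all 5 fits, and Stx1a drops to 0.02 with the cortical covariate.

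Other genes of the presynaptic cycle, a list of 97 for further SNAREs, Rab GTPases and their regulators, transmitter transporters and the endocytic machinery, were read in the same fit. Of 89 measured and 83 tested, 6 rose and 10 fell (19.3%), a share near the 19.6% of all genes, with a median difference of -0.007. Rab27a, a GTPase of secretory organelles, fell by 0.60 on the log2 scale (SE 0.065; limma adjusted p = 3.45e-05) at 7.80 to 8.13 in Rarb-null and 8.38 to 8.68 in WT arrays. Its relative Rab27b, which acts in secretion together with it, rose by 0.31 (SE 0.059; limma adjusted p = 0.00273), at 9.12 to 9.42 in Rarb-null and 8.86 to 9.12 in WT arrays, and missed the threshold with the oligodendrocyte covariate (0.25, limma adjusted p = 0.0572). Synpr, the gene of the vesicle protein synaptoporin, rose by 0.47 (SE 0.047; limma adjusted p = 1.7e-05) and lies 15 protein-coding genes from Rarb, and the limit given for Erc2 holds for it too. Synj2, a phosphoinositide phosphatase gene of endocytosis, rose by 0.44 (SE 0.055), and Stxbp6, the gene of the SNARE-binding protein amisyn, by 0.32 (SE 0.062). Rims4, a further RIM family gene named here after its values were seen, rose by 0.22 (SE 0.050; limma adjusted p = 0.0083), at 8.54 to 8.75 in Rarb-null and 8.34 to 8.52 in WT arrays. Slc17a8, the vesicular glutamate transporter that cholinergic interneurons use, fell by 0.39 (SE 0.063; limma adjusted p = 0.000874). Slc17a7, the vesicular glutamate transporter of cortical neurons and itself one of the cortical markers, gave 0.90 (SE 0.320) without passing (limma adjusted p = 0.0639). It ran from 10.65 to 11.69 in Rarb-null and from 9.17 to 11.20 in WT arrays, a wide spread within each genotype.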

How the data were processed

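The data were 11 arrays of nucleus accumbens RNA, 5 Rarb-null and 6 WT, grouped by sample title. Per the labels' protocols, tissue was punched bilaterally (0.5 mm) from 3 sections of 300 µm, and 100 ng of total RNA was labelled per mouse. The deposited values are log2 expression that the authors obtained with RMA on a log scale, per the labels. RMA as a method subtracts background, quantile-normalises and summarises probe sets. Base 2 was inferred from the range of the values. RMA compresses the folds of dim probe sets. Version and joint normalisation are not given in the sources used here.

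Of 35556 probe sets, 21789 carried 1 symbol in the platform annotation (21695 matched RefSeq by Entrez identifier), 1621 several, and 12146 were not in that table. Genotypes were compared with limma 3.58.1 (R 4.3.3; lmFit, eBayes, no covariates) over 11963 genes above the 40th percentile, with Benjamini-Hochberg adjustment. Family ratios were tested by exact permutation. The fit was tested on simulated data. Figures used matplotlib 3.10.9 in Python 3.11.15.

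The genes, lists and tests were chosen with earlier results of these data known. Named were Rarb, the listed genes and pairs, and the called genes with the smallest p (6 other presynaptic genes, 2 per marker list); Slc17a7 and Rims4 were added after their values were seen. Marker lists of interneurons, of septal, pallidal and hypothalamic neurons, and of glia and vessels were also measured. Alternatives were other filters, centring, repeated quantile normalisation, variance models, array weights, probe set means, a replicate block, marker covariates, a threshold of 0.01 and each array left out. A set without 3 arrays was chosen after seeing the data.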

Additional observations from a re-analysis of the deposited data

Results flagged for a closer look

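The spread of each listed gene within each genotype was examined, 70 groups of arrays in all, and 8 had 1 array far from the others; chance marks about 1 in 20 groups. In 6 of the 8, the array was Rarb-null replicate 5, which was the highest Rarb-null array in each. Stx1a read 9.24 there, against 8.73 to 8.84 in the remaining Rarb-null arrays, Doc2a 8.77 against 8.34 to 8.44 and Rph3a 10.09 against 9.66 to 9.77. Syn1 read 11.68 against 11.46 to 11.51, Nsf 12.37 against 12.29 to 12.31, and Syp 12.14 against 12.09 to 12.11. The same array had the highest cortical marker level, 9.27 against 8.64 to 8.80 in the remaining Rarb-null arrays. The part of that level in these readings was not tested beyond the covariate fits. Syn3 read 9.92 in WT replicate 2, below the remaining WT arrays (10.05 to 10.12), and its difference passed without that array (-0.12, limma adjusted p = 0.041). Unc13a read 10.63 in Rarb-null replicate 2, below the remaining Rarb-null arrays (10.73 to 10.76) and still above every WT array.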

How the results depend on the processing

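Of 746 values of the listed genes over 22 alternative fits, 699 kept their side of the threshold, 35 lost a call, 12 gained one and 0 called values changed sign. Most of the 746 belong to genes without a call, and only the 10 called genes could lose one. Of 22 fits Stx1a kept its call in 11, Sv2b in 12, Sv2a in 17, Syn2 in 19 and Sv2c, Rims2 and Unc13a in 20 each. Rab3b, Rimbp2 and Cplx1 kept theirs in all 22. Genes called under neither setting changed sign 58 times. With the cortical covariate the called genes over all genes numbered 1147, against 2341, with the oligodendrocyte covariate 1029, without Rarb-null replicate 5 and WT replicates 3 and 4 1347 and at a threshold of 0.01 970. Listed genes that rose, 3 in the main fit, numbered 6 with centred arrays, 5 with the replicate block, 0 with either covariate and 1 at 0.01; those that fell, 7, numbered 3 with the oligodendrocyte covariate. Other presynaptic genes that rose, 6, numbered 12 when centred, 10 with the replicate block and 3 with the oligodendrocyte covariate; those that fell, 10, numbered 5 with either covariate or without the 3 arrays, and 3 at 0.01. The median of the listed genes was 0.029 when centred and -0.044 with the cortical covariate, and that of the other presynaptic genes 0.033 and -0.033. Leaving out 1 array gave 1547 to 2576 called genes (lowest without Rarb-null replicate 3), 1 to 6 listed rises (1 without Rarb-null replicate 3, 6 without WT replicate 2) and 5 to 7 falls, and 7 to 10 family pairs. Of 8 pairs, 0 passed the exact permutation test without the 3 arrays (8 of all 22 at an unadjusted p under 0.05). With 4 arrays a genotype that test cannot go below 0.0286, so a pass after adjustment would need most pairs at that p, and the 0 says nothing of stability. The ratio of Rab3a to Rab3b changed by 0.85 there and that of Rims2 to Rims3 by -0.22, against 0.76 and -0.21 with all arrays. The cause of the other changes was not tested. The replicate number was not taken to pair the mice, since same-numbered arrays correlated at 0.056 to 0.425 and 2 of 5 matched their own number best; with it as a block 2872 genes passed, Doc2a (adjusted p = 0.0214), Rph3a (0.0392) and Syn3 (0.0476) gained a limma call and Sv2b (0.0719) lost it. The number of arrays limits every value, and signal over background was not measured.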
